A study of Mus musculus with 3 samples.

Results

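Myc, Mycn, Mycl, Max, Mxd1, Mxd3, Mxd4, Mxi1 and Mnt form the core of the Myc, Max and Mxd network of transcription factors, and their transcripts were followed in mouse embryonic stem (ES) cells during overexpression of Gata6, a zinc finger factor of the primitive endoderm. The 9 genes were taken as the network's core members, and every probe set that the platform annotation assigns to 1 of them alone was used. This gave 22 probe sets for 9 genes, of 18193 genes that have a probe set of their own on the array. No member probe set is shared with another gene. ES cells are pluripotent cells of the early embryo, and in this study they carried a modification that made Gata6 overexpression respond to dex, read here as the glucocorticoid dexamethasone. The groups are day 0 (the control), day 1 and day 2 of the overexpression, with 1 array each. All 3 are mouse ES cells. The sources used here do not give the dose or timing of dex, the line or strain of the cells, or whether the day 0 cells carried the modification. Any difference between days below is therefore also a difference between single cultures and single arrays. No test between days was possible, and the ratios against day 0 on day 1 and on day 2 share the day 0 array. Gata6 overexpression, any exposure to dex and time in culture cannot be told apart in this design.

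Proteins of the network carry a basic helix-loop-helix zipper and act as pairs with Max. Pairs of Myc, Mycn or Mycl with Max bind the E-box, whose preferred letters are CACGTG, and activate genes of growth, ribosome assembly and nucleotide synthesis. Pairs of Mxd1, Mxd3, Mxd4, Mxi1 or Mnt with Max bind the same letters and repress, through the Sin3 corepressor and its histone deacetylases. In ES cells Myc and Mycn support self-renewal and can stand in for each other, and Max, together with the large partner protein Mga, also keeps germ cell genes silent. Mxd genes are known for rising as many cell types leave the cell cycle and differentiate.

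Signals are linear MAS5 intensities, 1 per probe set. The 3 arrays had median signals of 81.8 to 86.4. A floor was placed at 54.0, which is percentile 40 of all values; dimmer signals were raised to it before ratios were taken, and 12289 to 12657 genes lay above it on each array. The ratio of 3' to 5' signal, a sign of RNA integrity, was 1.21 to 1.25 for Actb and 0.765 to 0.784 for Gapdh. Gata6 itself read 109.6 on day 0, 5573.5 on day 1 and 6069.6 on day 2. Of 8 ES cell markers, 7 were at least 2-fold lower on day 1 and 7 on day 2, with median log2 ratios of -1.98 and -3.0. All 10 primitive endoderm markers were at least 2-fold higher on both days, with medians of 4.95 and 5.54. Of 10 fibroblast markers, kept as a check for feeder cells, Col1a1, Col3a1, Postn, Lum, Dcn and Fap were at the floor on every array. Col1a2 was above the floor on every array, at 84.82, 67.5 and 82.58, and Pdgfrb on day 1 alone, at 93.21. On day 2, Thy1 was lower by at least 7.80-fold and Twist1 higher by at least 2.08-fold. The part of feeder cells in the results below was not tested. In such bulk RNA, fewer cells of a type and less RNA per cell cannot be told apart.

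The members did not move as a group. By their representative probe sets, Mycn and Mxd4 were at least 2-fold higher on both later days, Myc was lower on day 2, Mxd3 was higher on day 1 alone, and Max, the shared partner, stayed within 2-fold. The 2-fold difference of Mycn on both days ends with the mean over its probe sets, as given below. For Mxd4 on day 1, that mean or a higher floor leaves only a lower bound inside 2-fold. In day 1 against day 0, 3 of the 9 members were at least 2-fold higher (Mycn, Mxd3 and Mxd4) and 0 were lower, beside 6.0% of 13602 genes higher and 6.58% lower. In day 2 against day 0, 2 of 9 were higher (Mycn and Mxd4) and 1 was lower (Myc), beside 11.0% and 10.1% of 13865 genes. In day 2 against day 1, 1 of 9 was higher (Mxd4) and 0 were lower, beside 5.61% and 3.67% of 13468 genes. The median log2 ratio over the 9 members, by representative probe sets, was 0.31, 0.65 and 0.26 in the 3 comparisons. Over all genes compared it was -0.04, -0.05 and -0.01. The member medians depend on the choice of probe set, since probe sets of Mycn, Mycl, Mxd1 and Mxd3 disagree in sign in day 2 against day 0. The day 2 median of 0.65 is the ratio of Mxd3, which was 0.18 with the mean over probe sets. The members were chosen by name, with no test over them, so these counts describe the 9 genes.

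**Figure D1:**
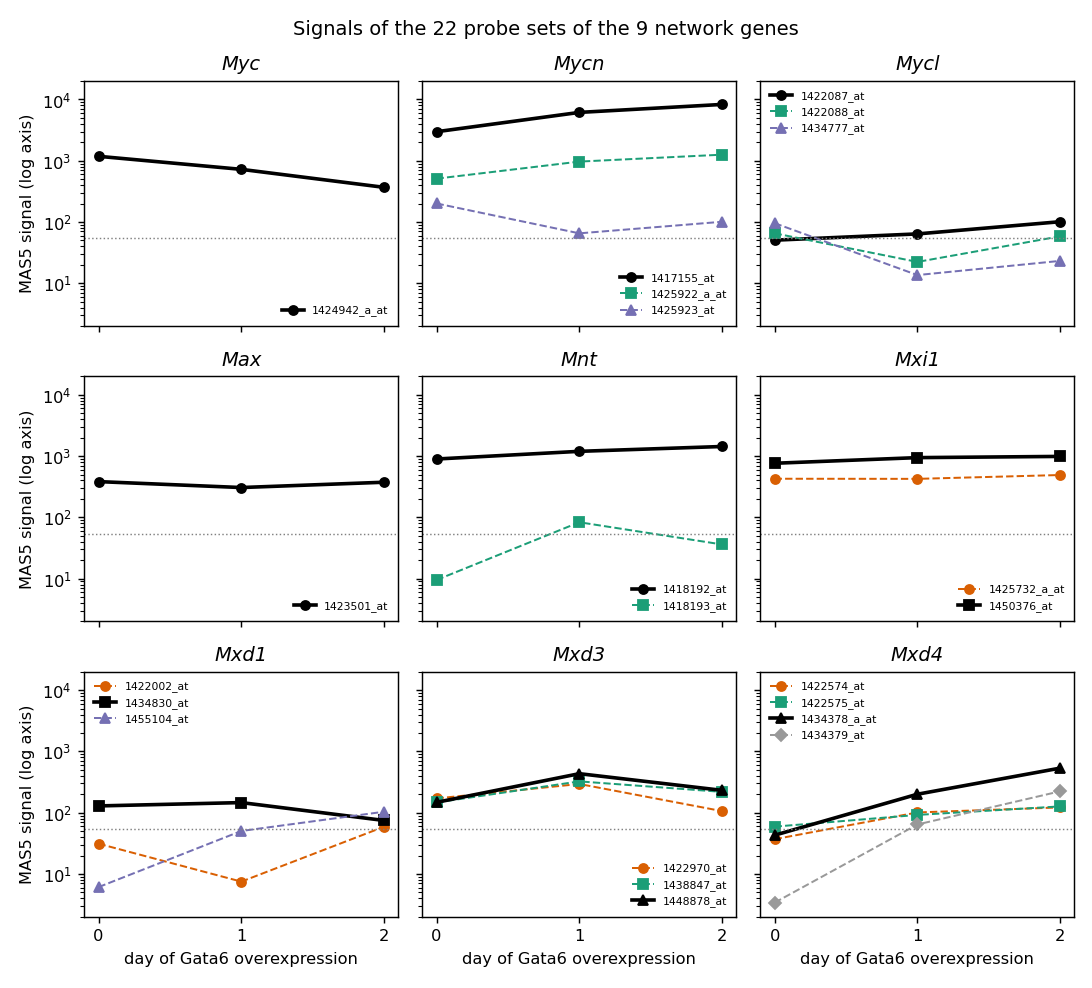
MAS5 signal (log axis) of each of the 22 probe sets on day 0, day 1 and day 2, 1 panel per gene, with 1 array per day. The thick black line is the probe set that represents the gene, dashed coloured lines are its other probe sets, and the dotted line is the floor of 54.0. Myc goes from 1181.3 to 368.0 and the brightest Mycn probe set from 2975.9 to 8301.6, while the probe sets of Mycl and Mxd1 lie near the floor and disagree.

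Of the 22 probe sets, 13 lay above the floor on all 3 arrays, 9 on 1 or 2 arrays and 0 on none. The brightest probe set, by its mean over the arrays on the log2 scale, represented each gene. Mycl was the 1 member with no probe set above the floor on every array. The only error that these data give for a ratio comes from pairs of probe sets of the same gene. It is their standard deviation (SD) per probe set, 0.37 in log2 over 47012 pairs in the 3 comparisons, and it depends on brightness. Below a signal of 200 it was 0.50, between 200 and 1000 it was 0.39, between 1000 and 5000 it was 0.25, and brighter pairs had 0.16. This SD holds how far probe sets of 1 gene disagree on the same arrays. It leaves out any error shared by a whole array and how far cultures differ. Probe sets of different genes have different sensitivity, so signals are compared between days for 1 gene and never between genes.

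The activating partners of Max went opposite ways. Myc, the best known of them, has 1 probe set, which read 1181.3 on day 0, 723.5 on day 1 and 368.0 on day 2. It was lower on each later array, 1.63-fold on day 1 and 3.21-fold on day 2 against day 0. The log2 ratio was -0.71 ± 0.39 (SD of probe set pairs at this signal, 1 array per day) on day 1 and -1.68 ± 0.39 on day 2. Against all genes compared, these lay at percentiles 12.3 and 3.46, and 480 genes had a smaller day 2 ratio. From day 1 to day 2 the Myc signal differed 1.97-fold (log2 -0.98 ± 0.39), just inside the 2-fold limit, at percentile 3.91. No other Myc probe set was there to compare it with.

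Mycn, the relative of Myc that is prominent in early embryos and neural progenitors, read 2975.9 on day 0, 6151.1 on day 1 and 8301.6 on day 2 with its brightest probe set. Its signal was 2.07-fold higher on day 1 (log2 1.05 ± 0.25) and 2.79-fold higher on day 2 (log2 1.48 ± 0.25), at percentiles 94.4 and 94.1 of all genes. Another Mycn probe set read 510.2, 968.4 and 1255.9, with log2 ratios of 0.92 and 1.30, so it went the same way. The third and dimmest read 200.8, 65.3 and 100.9 and went the other way, with log2 ratios of -1.62 and -0.99. Its day 1 signal was below 70.2, the 95th percentile of 80 probe sets of odorant and pheromone receptors, a background set without a known role in ES cells. With the mean over the 3 probe sets in place of the brightest, the Mycn ratios were 0.12 on day 1 and 0.60 on day 2, which ends the 2-fold difference on both days. Set side by side, the log2 ratio of Mycn exceeded that of Myc by 1.75 on day 1 and by 3.16 on day 2.

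Mycl, the third activating member, was dim. Its representative probe set read 50.51, 63.90 and 101.1, with a day 2 log2 ratio of at least 0.90, since its day 0 signal was under the floor. The other probe sets read 65.41, 22.30 and 58.38, and 95.72, 13.60 and 23.19, each highest on day 0. The 3 probe sets thus disagreed in sign, and no direction is given for Mycl. Max, the shared partner, read 383.2, 306.7 and 374.4. Its day 2 log2 ratio of -0.03 ± 0.39 lay at percentile 51.1, near the middle of all genes, and its day 1 ratio of -0.32 ± 0.39 was smaller than the probe set SD.

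**Figure D2:**
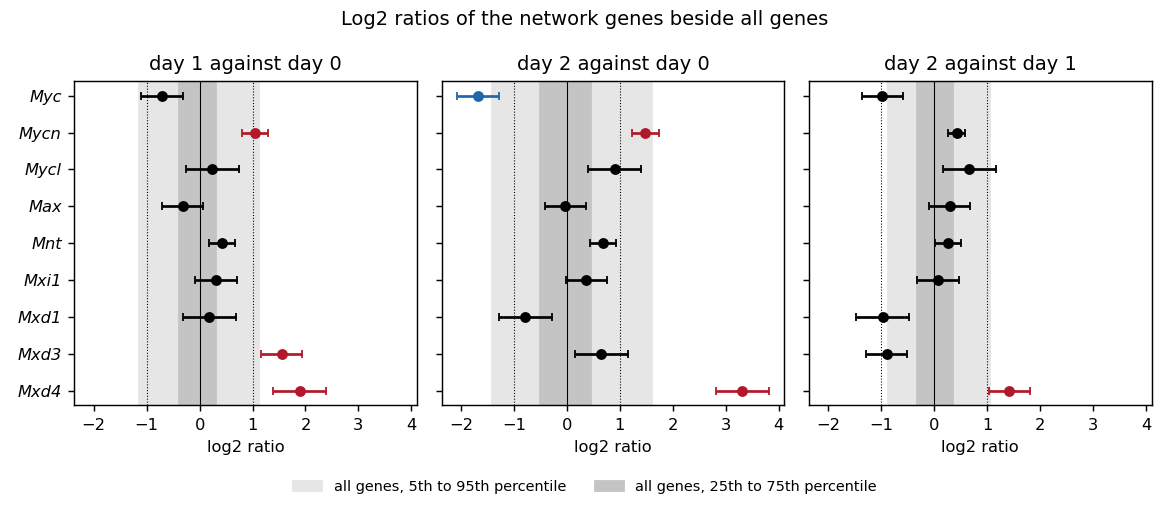
Log2 ratio of each member (points, by the representative probe set) in the 3 comparisons, with bars of 1 SD of probe set pairs at that signal; 1 array per day. Grey bands hold the middle of all genes compared, dotted lines mark 2-fold, red points are at least 2-fold higher and blue ones at least 2-fold lower. In day 2 against day 0, Mxd4 at 3.31 and Myc at -1.68 lie outside the outer band, whose bounds are -1.41 and 1.61. Mycn at 1.48 lies inside it. Against day 0, the ratios of Mxd4 and Mycl are lower bounds set by the floor, which their bars do not show.

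Among the repressing partners of Max, Mxd4 had the widest ratio of the network. Mxd4 (also called Mad4) belongs to the Mxd proteins that bring Sin3 to E-boxes. Its representative probe set read 42.91 on day 0, under the floor, then 200.3 on day 1 and 534.4 on day 2. The signal was at least 3.71-fold higher on day 1 and at least 9.89-fold higher on day 2 (log2 at least 3.31), at percentiles 98.2 and 99.1. Both percentiles rest on ratios to the floor. No SD is given for these ratios, since the SD was taken from signals above the floor. From day 1 to day 2, with both signals above the floor, the difference was 2.67-fold (log2 1.42 ± 0.39).

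The other Mxd4 probe sets went the same way. They read 3.401, 64.20 and 223.6, then 36.91, 101.0 and 122.0, and 59.21, 92.01 and 126.8. All 4 were at least 2-fold higher on day 2 than on day 0, by at least 4.14-fold, at least 2.26-fold and 2.14-fold for these, the last from a day 0 signal of 59.21 that lies below the receptor background of 70.2. On day 1 these 3 were within 2-fold of the floor or of day 0, at 1.19-, 1.87- and 1.55-fold. The day 1 ratio of Mxd4 was no longer past 2-fold with the mean over the 4 probe sets (log2 at least 0.92). The same held with a floor at the 60th percentile (at least 0.46). Both are lower bounds from day 0 signals under the floor, so they cannot show that the difference was absent. The day 2 ratio stayed past 2-fold under both, at log2 of at least 1.91 and at least 1.87.

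Mxd3, a member of the family known for expression in proliferating cells, had a different course. Its representative probe set read 147.7, 433.6 and 231.7, which is 2.94-fold higher on day 1 (log2 1.55 ± 0.39, percentile 97.3) and 1.57-fold higher on day 2 (log2 0.65 ± 0.50). The others read 146.9, 324.5 and 218.7, and 171.0, 294.2 and 106.1. All 3 probe sets were highest on day 1, and they disagreed on the sign of day 2 against day 0, with log2 ratios of 0.65, 0.57 and -0.69. From day 1 to day 2 all 3 were lower, with log2 ratios of -0.90, -0.57 and -1.47.

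Mxd1, the founding Mxd gene and a marker of terminal differentiation in several lineages, gave no clear course. Its probe sets read 129.0, 146.3 and 74.68 (the representative), 31.21, 7.500 and 59.08, and 6.101, 50.30 and 103.8. The first was lowest on day 2 and the others highest on day 2, so they disagree and no direction is given. Mxi1 and Mnt are the more widely expressed repressing partners. Mxi1 read 763.6, 944.0 and 987.9 with one probe set and 426.9, 424.9 and 490.9 with the other, with day 2 log2 ratios of 0.37 ± 0.39 and 0.20. Mnt, a competitor of Myc for Max, read 896.0, 1195.6 and 1434.2, a log2 ratio of 0.42 ± 0.25 on day 1 and 0.68 ± 0.25 on day 2. That is 1.60-fold on day 2, inside the 2-fold limit, at percentile 82.4. Its other probe set was above the floor on day 1 alone, at 83.20. Of the genes for repressing partners, then, Mxd4 was the 1 that was at least 2-fold higher on day 2. By the representative probe sets, its log2 ratio exceeded that of Mxi1 by at least 2.93 and that of Mxd3 by at least 2.66. Both are lower bounds, since the Mxd4 ratio is against the floor. With the mean over probe sets the day 2 log2 ratios were 0.29 for Mxi1, 0.18 for Mxd3 and at least 1.91 for Mxd4. That Mxd4 mean includes ratios against the floor, so these gaps are lower bounds too.

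**Figure D3:**
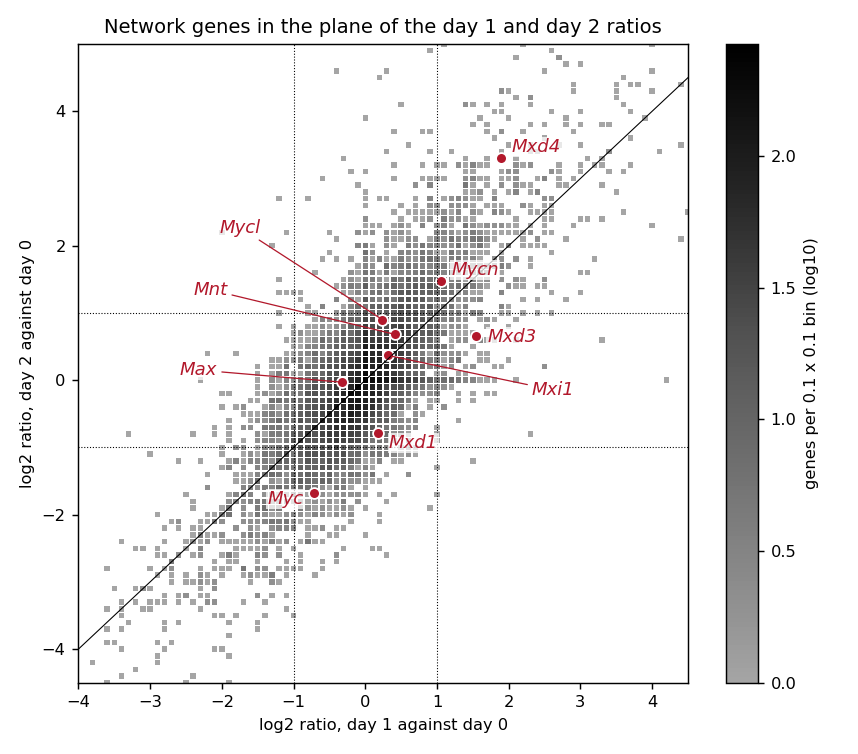
Log2 ratio on day 1 (x axis) and on day 2 (y axis), each against day 0; grey squares count all genes in bins of 0.1 by 0.1 (log10 scale) and red points are the 9 members. The axes share the day 0 array, so points spread along the diagonal (thin line) in part for that reason; dotted lines mark 2-fold, and genes beyond the drawn range are not shown. Mxd4 and Mycn lie above the diagonal, Myc lies below it, and Mxd3, at 1.55 and 0.65, lies to its right.

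Genes with the most similar course were named by their distance to a member in that plane, over the 3 arrays, among 9461 genes with a signal of at least 200 on the brightest array. Nearest to Myc was Mthfd2, a mitochondrial folate enzyme that is a textbook Myc target and stands on one of the target lists used below. It read 5394.3, 3368.5 and 1734.3, at a distance of 0.053. The next was Fanci, a DNA crosslink repair gene, at 1522.0, 965.2 and 493.5 and a distance of 0.076. Such likeness was common, since 57 genes lay within 0.25 of Myc. Nearest to Mycn were Fam174a (distance 0.033) and Txndc16 (0.038), among 109 genes within 0.25. Nearest to Mxd3 were Homer2 (0.094) and Plce1 (0.128), and nearest to Mxd4 were 2810459M11Rik (0.013) and Fabp3 (0.142), a fatty acid binding protein that read 2081.5, 7568.0 and 22679.4. Mxd4 and 2810459M11Rik, at 42.91 and 39.71, were both under the floor on day 0, so the floor enters both courses and these distances depend on it. Only 7 genes lay within 0.25 of Mxd3 and 8 within 0.25 of Mxd4.

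The letters CACGTG stand in the promoter windows of 3 of the 8 members that the RefSeq promoter table holds (build GRCm38.p6, from 250 bases before to 50 after the start). Myc has no entry in that table. The match starts 219 bases before the start of Mxd4, 123 before that of Mnt and 3 before that of Max. The 46 bases around each are shown because these letters are what the network's proteins read, with CACGTG in capitals, 5' to 3' on the gene's strand.
Mxd4, chr5:34187904-34187949, minus strand: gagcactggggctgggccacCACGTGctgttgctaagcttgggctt
Mnt, chr11:74830781-74830826, plus strand: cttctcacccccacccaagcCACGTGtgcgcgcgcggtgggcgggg
Max, chr12:76962226-76962271, minus strand: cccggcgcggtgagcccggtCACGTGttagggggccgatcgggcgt
These letters are their own reverse complement, so both strands were searched at once. They occur in 2349 of 32851 windows of this length (7.15%) and in 8.09% of 27025 genes with any window. The windows of Mycn, Mycl, Mxd1, Mxd3 and Mxi1 do not hold them. The members with the letters were higher (Mxd4), or within 2-fold (Mnt and Max), on day 2. Letters bound by GATA factors, searched as AGATAA or AGATAG, or as TGATAA or TGATAG, on both strands, stand in the windows of 0 of the 8 members and in 33.0% of all genes. A match describes the letters of a window and not a bound site, and a window without a match says nothing about the factor.

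The further partners of the network were each described from a list of its pathway. Mga pairs with Max and was 2.09-fold lower on day 2, reading 1662.4, 1256.1 and 796.5. The Mlx arm senses sugar rather than growth signals, and there Mlxip was 2.26-fold higher (log2 1.17) while Mlx, at 0.45, stayed within 2-fold. Of these 4 partner genes, 1 was higher and 1 lower on day 2, and their log2 ratios had a median of 0.08. On day 2, 2 of 9 other E-box factors of the zipper class were higher and 1 was lower, around a median of 0.14. The counts of both lists stand beside 11.0% of all genes higher and 10.1% lower. Tfec, a relative of Mitf, had the widest ratio, from 4.601 on day 0 to 206.8 and 1095.6, at least 20.3-fold on day 2. Srebf2, the sterol response factor, was 2.02-fold higher and Tfap4, a known Myc target, 2.10-fold lower.

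Of the cofactors that bind Myc on chromatin, most stayed within 2-fold. By day 2, 4 of 15 measured were at least 2-fold lower and 0 higher, beside 10.1% and 11.0% of all genes, and the median log2 ratio was -0.40, against -0.05 over all genes. The acetyltransferase Kat2a (3583.5, 2652.4 and 1705.4), the helicase Ruvbl2 (11233.1, 9050.1 and 5353.0) and the actin-related Actl6a (4766.9, 3648.8 and 2329.8) were 2.10-, 2.10- and 2.05-fold lower, and Wdr5 2.01-fold. These lie close to the limit, and with quantile or cyclic loess normalization the count of lower cofactors was 1. On day 1, 0 of 15 differed by 2-fold.

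Genes for proteins that set the stability of Myc differed little as a list. By day 2, 1 of 16 was higher and 2 were lower, beside 11.0% and 10.1% of all genes, around a median of 0.13. Usp28, a deubiquitinase that spares Myc from the ubiquitin ligase Fbxw7, was 4.43-fold lower, reading 1124.1, 451.8 and 253.8. Usp37, another deubiquitinase of Myc, was 2.18-fold lower. Gsk3b, the kinase that marks Myc for Fbxw7, was 2.10-fold higher, and Fbxw7 itself read 716.4, 665.7 and 801.1, within 2-fold. Levels of the Myc protein were not measured.

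Among corepressors that the Mxd proteins, Mxi1 and Mnt recruit, most genes stayed within 2-fold. By day 2, 2 of 17 measured Sin3 and NCoR genes were lower and 0 higher, beside 10.1% and 11.0% of all genes, around a median of -0.40. The share of lower genes is near that of all genes. Sap30, a subunit of the Sin3 histone deacetylase complex, was 7.72-fold lower, reading 7626.7, 2803.3 and 988.1. Sinhcaf, the Sin3 subunit also known as Fam60a, was 2.32-fold lower at 4067.7, 1824.0 and 1752.6. By their representative probe sets the scaffold genes stayed within 2-fold, Sin3a at 2175.6, 1881.3 and 1363.3 and Sin3b at 3105.9, 3196.2 and 3731.5. Over all probe sets above the floor, day 2 log2 ratios ran from -1.1, past 2-fold, to -0.67 for Sin3a. For Sin3b they ran from -0.44 to 0.43. Hdac2, at log2 -0.79, was also inside the limit.

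**Figure D4:**
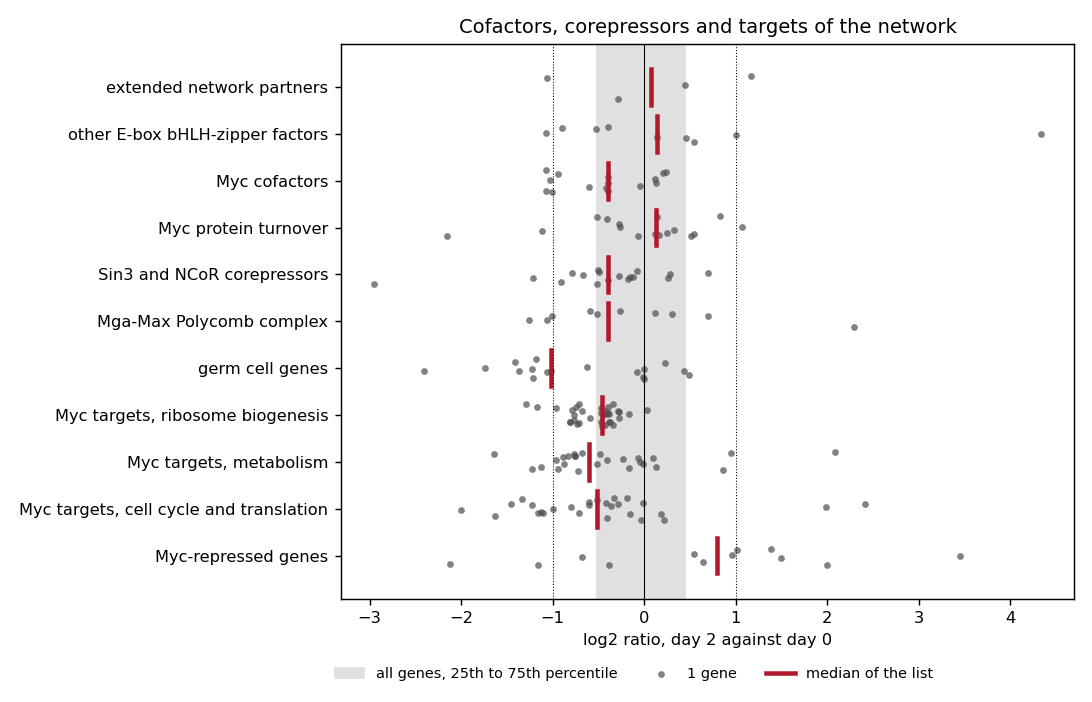
Log2 ratio in day 2 against day 0 of every measured gene (points) of 11 lists around the network, with the median of each list as a red bar; the vertical scatter within a list is for display only. The grey band is the middle of all genes compared, from -0.51 to 0.45, and dotted lines mark 2-fold. Medians of the 3 lists of Myc-activated targets lie at -0.46, -0.60 and -0.52, that of Myc-repressed genes at 0.80 and that of germ cell genes at -1.02.

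Textbook targets that Myc activates mostly had ratios below 0, with exceptions in both directions. Pooled over 3 lists, 87 of 93 were measured, and by day 2 the 2-fold limit was passed upward by 3 (3.4%) and downward by 13 (14.9%), beside 11.0% and 10.1% of all genes. Their median log2 ratio was -0.21 on day 1 and -0.47 on day 2. Ratios below 0 were found for 74 of 87 on day 1 and for 77 of 87 on day 2 (88.5%), beside 54.0% and 53.3% of all genes. The lists share known targets of both Myc and Mycn, and they also hold genes of proliferation in general. The median lay between -0.52 and -0.37 over all alternatives tried, while the count of lower genes depended on the limit, with 3 at 3-fold and 40 at 1.5-fold.

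By function, 2 of 34 ribosome biogenesis targets were lower and 0 higher on day 2, beside 10.1% and 11.0% of all genes. These were Rrp12, a ribosome export factor (1228.0, 762.4 and 503.3), and Polr1a, the large subunit of RNA polymerase I (2007.0, 1512.4 and 892.9). Nop2, at log2 -0.81, followed inside the limit, and the bright nucleolar genes Ncl and Npm1 were at -0.47 and -0.39. Of 26 metabolic targets, 3 were lower and 1 was higher, beside the same shares of all genes. The pyrimidine enzyme Umps was 2.33-fold lower and Prps1, of phosphoribosyl synthesis, 2.18-fold lower, besides Mthfd2 above. The lactate transporter Slc16a1 went the other way, from 3817.3 to 16255.6 on day 2, 4.26-fold higher. Odc1, the classic Myc target of polyamine synthesis, read 19350.3, 17743.7 and 17214.6.

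Among 27 targets of the cell cycle and translation, 8 were lower and 2 higher by day 2, beside 10.1% and 11.0% of all genes. Ccnd1 read 1424.4, 309.5 and 356.5, 4.0-fold lower, and Ccnd2 read 425.3, 410.9 and 1687.4, 3.97-fold higher, so these D cyclins went opposite ways. Id2, an inhibitor of differentiation factors, was 5.33-fold higher. By representative probe sets the lower genes also included the replication licensing genes Mcm2 and Mcm3 and the S-phase factors E2f1 and E2f2. The translation inhibitor Eif4ebp1, telomerase (Tert) and the transferrin receptor Tfrc, 3.10-fold lower, were others. Some probe sets lay inside the limit, at log2 -0.62 for Mcm3, -0.33 for E2f1, -0.35 for Eif4ebp1 and -0.57 for Tert. The same held for Ccnd2 (0.56) and Id2 (0.5). All probe sets of Ccnd1, Mcm2, E2f2 and Tfrc above the floor passed it.

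Genes that Myc is known to repress went both ways. On day 2, 5 of 12 measured were higher and 2 lower (median 0.80), beside 11.0% and 10.1% of all genes. On day 1 the counts were 2 and 3 (median -0.16), beside 6.0% and 6.58%. Ndrg1, named for its repression by N-myc, was 10.9-fold higher on day 2, at 259.3, 1249.4 and 2835.9 (log2 2.27 on day 1 and 3.45 on day 2). The CDK inhibitor Cdkn1a dipped and then exceeded its start, at 494.4, 201.5 and 1977.7, 4.0-fold higher on day 2 and 2.45-fold lower on day 1. Cdkn1c and Cebpa were also higher on day 2, at log2 1.39 and 1.5, with Cebpa starting below the receptor background, at 56.21. Gas1 was counted as higher by its representative probe set, at log2 of at least 1.02 from under the floor. Its probe sets disagreed in sign, from -0.05 to 1.02. Ndrg2 was at least 4.35-fold lower and the stress gene Gadd45a 2.24-fold lower. With a floor at the 60th percentile or a pseudocount of 50 the higher count was 3, and the median over all alternatives ran from 0.19 to 0.80.

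The Polycomb complex that holds Max and Mga is a form of Polycomb repressive complex 1. By day 2, 3 of its 10 measured genes were lower and 1 was higher, beside 10.1% and 11.0% of all genes. L3mbtl2, which compacts chromatin, was 2.40-fold lower (2719.4, 1762.7 and 1134.4). Mga and Wdr5, the latter also counted among the cofactors above, were 2.09- and 2.01-fold lower, close to the limit. Yaf2 was 4.89-fold higher at 237.1, 722.1 and 1160.6. Pcgf6, the subunit that defines the complex, stayed within 2-fold at 3253.6, 2344.9 and 2714.7.

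Of the germ cell genes that Max and Mga keep down in ES cells, 9 of 17 measured were at least 2-fold lower on day 2. Another 8 were within 2-fold and 0 were higher, beside 10.1% of all genes lower and 11.0% higher. The 8 include Brdt and Tex101, under the floor on both day 0 and day 2, so no ratio was measured for them. Such genes are left out of the shares over all genes. The median log2 ratio was -1.02, with Brdt and Tex101 entered at 0.0. On day 1, 4 were lower and 1 was higher, beside 6.58% and 6.0%. Stag3, a meiotic cohesin subunit, read 1950.0, 694.2 and 367.7, 5.30-fold lower. Mael, a gene of the piRNA pathway, read 1665.1, 1516.9 and 497.9, 3.34-fold lower on day 2 and within 2-fold on day 1. Stk31 read 766.8, 701.0 and 288.1, 2.66-fold lower. Ddx4, Taf7l, Sycp1 and Sycp3 were within 2-fold, at log2 -0.01, 0.44, 0.49 and 0.23. Many of the others were dim, and the count of lower genes was 4 with a floor at the 60th percentile and 6 with the pseudocount.

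CACGTG stands in the promoter windows of 10 of the 18 germ cell genes in the table (55.6%), beside 8.09% of all genes. The windows of the 3 named genes hold the letters and are shown for that reason, again with CACGTG in capitals and on the gene's strand (GRCm38.p6, RefSeq).
Stag3, chr5:138280319-138280364, plus strand: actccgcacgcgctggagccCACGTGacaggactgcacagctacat
Mael, chr1:166238942-166238987, minus strand: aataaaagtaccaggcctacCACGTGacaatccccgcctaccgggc
Stk31, chr6:49395464-49395509, plus strand: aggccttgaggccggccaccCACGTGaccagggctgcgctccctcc
Of 9 germ cell genes with the letters that could be compared, 4 were lower on day 2 (median log2 ratio -0.62), and of 5 without them 5 were lower (median -1.21). Among the pooled Myc targets, 23 of 79 windows (29.1%) hold the letters. Those with them had a median day 2 log2 ratio of -0.32 (20 genes, 0 lower by 2-fold) and those without one of -0.60 (54 genes, 10 lower). Over all genes with a window the medians were -0.04 with the letters (1268 genes) and -0.06 without (9911 genes). In neither list, then, were the genes with CACGTG the ones with the lower median.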

How the data were processed

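Total RNA of mouse ES cells was labelled with biotin by a one-cycle kit and hybridised to 3 Affymetrix arrays, per the labels' protocols. The authors deposited a linear intensity for each probe set, made with MAS5 per the submitters' processing notes (no version named), in which perfect-match and mismatch probes give a common signal. The 3 columns had trimmed means of 497.5 to 497.7, so a common scaling preceded deposit, and such scaling assumes equal total signal on each day.

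Of 45101 probe sets, 64 were controls, 34945 had 1 gene in the platform annotation, 932 several and 9160 none. Symbols were updated through a RefSeq table (34754 matched). Each array was rescaled to a common 2% trimmed mean, values under 54.0 were set to that floor, and log2 was taken. The probe set with the highest mean represented each gene. Ratios and counts of list genes are of that probe set alone, and other probe sets of the same gene can differ from it. The call higher or lower needed a difference of 2-fold or more between the arrays compared, the brighter being above the floor. A fold against the floor is a lower bound, written as at least N-fold. Genes of a list above the floor on at least 1 array were taken as measured. With 1 array per day there are no p-values. The number of arrays limits the precision.

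Named genes were all members, the 3 genes of each list with the widest day 2 ratio among those whose probe sets shared a sign, and the 2 genes nearest each member that differed 2-fold. Further list genes named as examples were picked with their values in view. Members and lists were chosen with earlier results of these data known. Alternatives were other floors (25th and 60th percentile), a pseudocount of 50, values as deposited, quantile and cyclic loess normalization (limma 3.58.1, R 4.3.3), the mean over probe sets, no probe sets of shared type, and limits of 1.5- and 3-fold. Ratios and counts used Python 3.11.15, numpy 2.4.6 and pandas 2.3.3. They were tested on simulated data in which brighter genes changed by more than 2-fold. That test does not cover dim genes or changes near 2-fold.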

Additional observations from a re-analysis of the deposited data

How the results depend on the processing

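The number of arrays and signals near the floor set the limits here. Counting limits decided most counts of members. At 3-fold, 1 member was higher in day 1 against day 0, 1 in day 2 against day 0 and 0 in day 2 against day 1, in place of 3, 2 and 1. At 1.5-fold, 5 members were higher and 2 lower in day 2 against day 0, 2 were higher and 3 lower in day 2 against day 1, and 1 was lower in day 1 against day 0. With the mean over probe sets the higher counts were 1, 1 and 0. In day 2 against day 1 quantile normalization gave 2 lower members and cyclic loess 1, in place of 0. Over 8 alternatives, 197 of 216 member ratios moved by less than the probe set SD, 19 moved by more, and no 2-fold difference changed sign. Part of the 197 was fixed in advance. No member probe set is of shared type, so leaving those out changed no member ratio. Rescaling changed the deposited values only by factors of 0.9997 to 1.0002. Myc and Max have 1 probe set each, so the mean over probe sets could not move them. The day 2 ratio of Myc stayed between -1.75 and -1.56, that of Mycn between 0.60 and 1.56 and that of Mxd4 between 1.87 and 3.64. The 1.87 of Mxd4 is a lower bound set by the higher floor. Ratios inside 2-fold changed sign in 1 alternative each for Mycl (day 1 and day 2 against day 0), Mxd1 (day 2 against both) and Mnt (day 2 against day 1), by the mean over probe sets. Of 288 list medians 283 stayed within the SD, and of 720 list counts 610 stayed within 1.5 times. No paired analysis was possible because each day has 1 array. The cause of these shifts was not tested.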
